A study of Nicotiana tabacum with 12 samples.

Results

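The comparison set leaves labelled YOE, an overexpression line, against leaves labelled Q18, a knockout line, the pair that stands at opposite ends of the engineered gene. It used 6 of the 12 leaf libraries of Nicotiana tabacum in the study, all columns labelled YOE (3) and all labelled Q18 (3). The other 6 libraries, 3 of the wild type K326 and 3 of the wild type KY, also entered the fit, as group means. Their spread is part of the estimate behind every p-value, while their levels are given here only for orientation. Leaves were taken at the seedling stage, with no treatment or exact age in the labels, and the engineered gene is NtCISZOG. The labels give neither the cultivar in which each line was made, nor the promoter, the number of independent transformants or whether replicates came from separate plants. The design text names an overexpression line of KY and an edited line of K326, and no label says whether these are YOE and Q18. The p-values below therefore measure the spread between replicate libraries of all 4 groups, which may be technical.

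Cytokinins are hormones that delay leaf ageing, promote cell division and support chlorophyll formation. A cis-zeatin O-glucosyltransferase attaches glucose to the side chain of a cytokinin, which stores the hormone in an inactive form that glucosidases can release. Chlorophyll is made in the plastid from tetrapyrroles, and magnesium chelatase, with subunits H, D and I, places the magnesium ion that commits the pathway to chlorophyll. Tobacco is an allotetraploid, so most of these enzymes exist in near-identical copies from both ancestral genomes, and reads can be split between them.

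No description in the table named a zeatin O-glucosyltransferase, so the level of the engineered gene could not be used to check the labels. The genes that should mark leaf tissue were among the most abundant in all 6 libraries. The 88 tested light-harvesting chlorophyll a-b binding genes summed to 31264, 44494 and 23765 scaled TPM (TPM, a share of transcripts corrected for gene length, after the scaling described next) in the YOE libraries, against 35227, 18808 and 24984 in the Q18 libraries. Total deposited TPM ran from 334759 to 489980 in the YOE libraries and from 608606 to 676862 in the Q18 libraries, and the number of reads is unknown. TPM over every gene of a library would give the same total in each, so these totals go against TPM of a complete table, and whether the values are another unit, such as FPKM, was not tested. Each library was therefore divided by its median ratio over 20130 genes present in all 12 libraries, with factors of 0.516 to 0.867 for YOE and 1.208 to 1.509 for Q18. This brought the median log2 difference over all tested genes, YOE minus Q18, to -0.04, from -0.74 on the values as deposited. Every level below is a scaled TPM, every change is YOE minus Q18 on the log2(scaled TPM + 1) scale, and "rose", "fell" and "called" mean a Benjamini-Hochberg adjusted p below 0.05 in limma over all 31064 tested genes.

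The lines differed at 5378 genes, of which 2740 (8.82% of those tested) rose and 2638 (8.49%) fell. Rises in which every YOE library lay above every Q18 library made up 8.53% of the tested genes, and falls with every YOE library below every Q18 library 8.37%. Of the rises, 1364 were at least 2-fold, and of the falls, 509. On the values as deposited the split turned, with 698 higher and 21676 lower genes, so directions of whole gene groups hold only relative to the typical gene. Of the 34 gene lists described below, 24 had more higher than lower members when scaled and 1, the jasmonate list, as deposited, where the other 33 had more lower ones. With the 6 libraries alone, 1396 genes were called. The tetrapyrrole list then had 1 rise, the Calvin cycle list 3 and the jasmonate list 16. The counts also rested on single libraries. Without YOE replicate 2 the total was 2104, without Q18 replicate 2 it was 2207, and without both it was 575. Those 2 libraries were also the least alike of any YOE and Q18 pair, with a correlation across genes of 0.858, where the most alike pair reached 0.957. Within the groups the correlations were 0.934 to 0.954 for YOE and 0.965 to 0.975 for Q18.

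**Figure D1:**
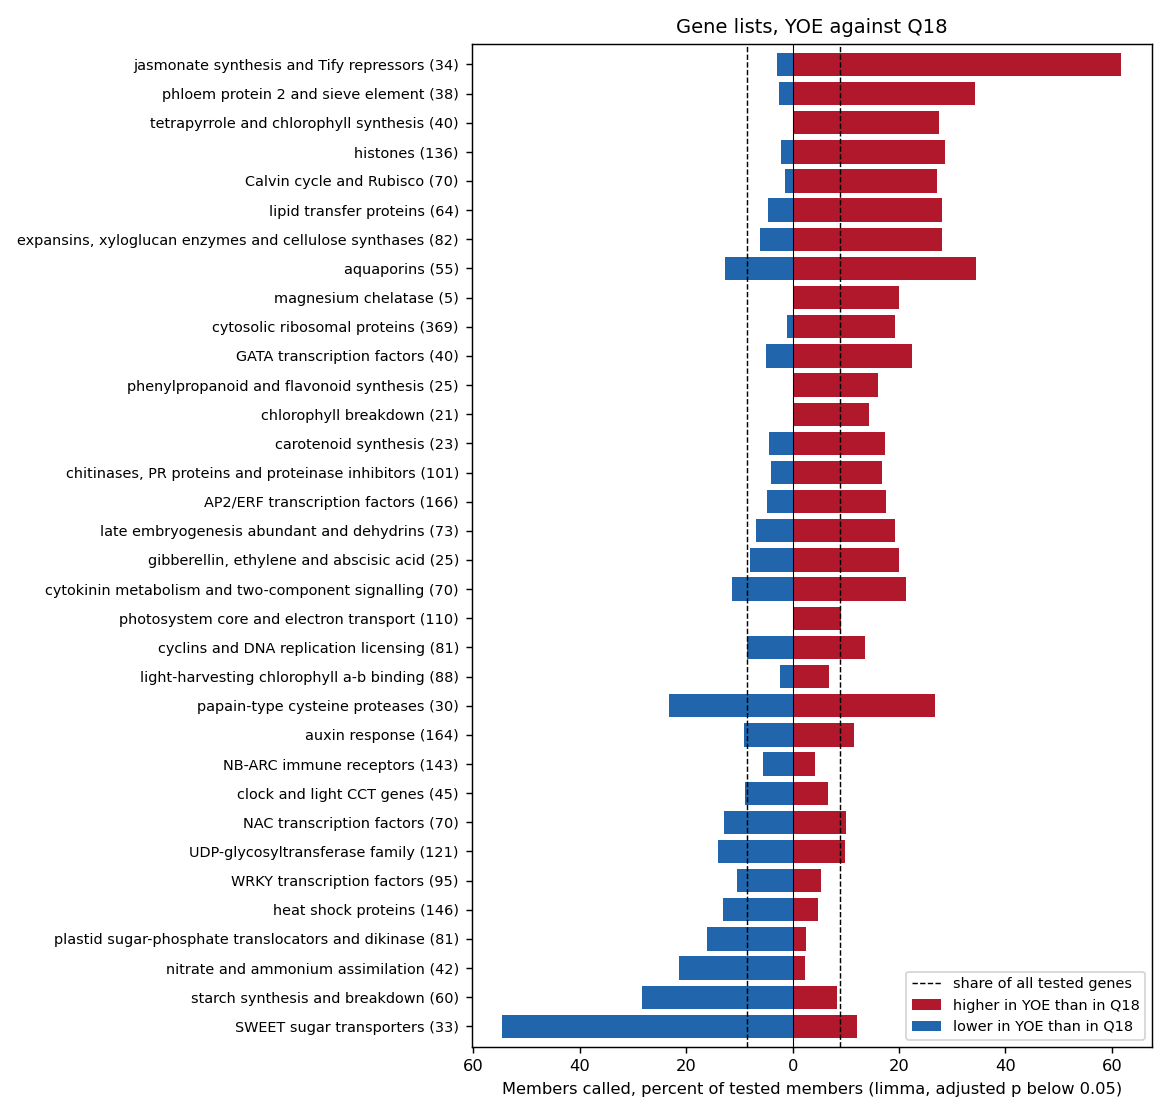
Percent of the tested members of 34 gene lists called higher (red, to the right) and lower (blue, to the left) in YOE than in Q18 by limma on scaled values, with the number of tested members in brackets. The dashed lines mark the share over all tested genes, 8.82% higher and 8.49% lower. Jasmonate and Tify genes are at the top, with 61.8% higher, and SWEET transporters at the bottom, with 54.5% lower. As deposited, 33 of the 34 lists have more lower than higher members.

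Genes of magnesium chelatase were compared first, since the study concerns chlorophyll. The H subunit, which binds the porphyrin, was measured through 2 copies. Nitab4.5_0010636g0020 stood at 83.6, 95.03 and 48.6 in the YOE libraries, against 92.0, 32.4 and 57.3 in the Q18 libraries. Nitab4.5_0005195g0040 stood at 64.9, 73.6 and 40.01 in YOE, against 63.6, 26.4 and 41.7 in Q18. For both copies the groups overlapped, and neither was called (log2 changes 0.38 and 0.47, limma adjusted p = 0.477 and 0.307). Summed over both copies, H subunit RNA was 135.2 ± 41.7 in YOE and 104.5 ± 48.7 in Q18 (SD, n = 3 each). The exact permutation p, two-sided, was 0.5, where 0.1 is the smallest p that 3 against 3 allows. As deposited the sum was lower in YOE, at 90.4 ± 15.5 against 135.6 ± 56.7 (exact p = 0.2). Without YOE replicate 2 and Q18 replicate 2 the scaled changes of both copies turned slightly negative, at -0.19 for Nitab4.5_0010636g0020 and -0.014 for Nitab4.5_0005195g0040, and the sum averaged 118.6 in YOE and 127.3 in Q18. In the wild types the sum was 121.0 ± 29.2 in K326 and 315.1 ± 59.1 in KY.

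Among the chelatase genes 1 passed the test. The D-type copy Nitab4.5_0000733g0210 stood at 11.8, 15.0 and 10.2 in YOE, against 10.1, 6.73 and 7.01 in Q18, so the groups touched but did not overlap (log2 change 0.58, adjusted p = 0.0452). As deposited its change was -0.28, and its adjusted p reached 0.168 when 1 library was left out. The second D-type copy, Nitab4.5_0001663g0090, and the I subunit, Nitab4.5_0006237g0030, were not called (log2 changes 0.26 and 0.72, adjusted p = 0.343 and 0.0706). The copies Nitab4.5_0005195g0040 and Nitab4.5_0000733g0210 were near 0 in KY, at no more than 0.306, while both lines and K326 expressed them.

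**Figure D2:**
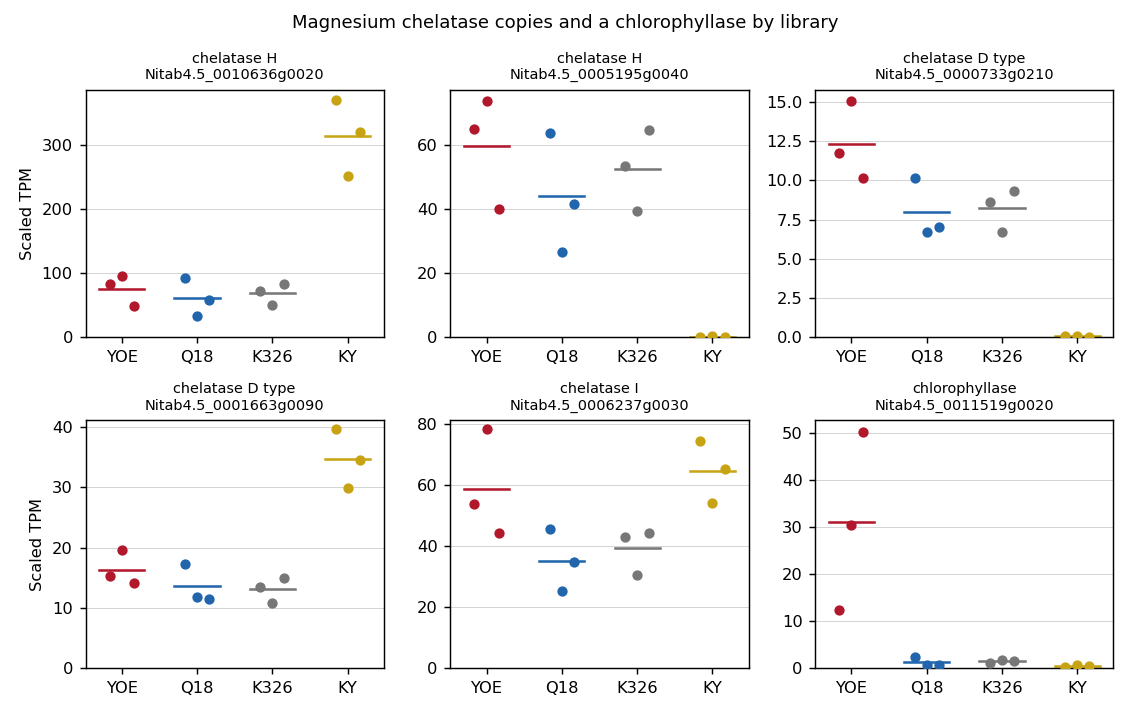
Scaled TPM of the 5 magnesium chelatase copies and of the chlorophyllase Nitab4.5_0011519g0020 in each library (points; bars are group means; n = 3 a group; each panel has its own axis from 0). For the H copies the YOE and Q18 points overlap, while all 3 YOE points of the chlorophyllase (12.4 to 50.2) lie above all Q18 points (0.538 to 2.40). The chlorophyllase was chosen among called genes without such overlap.

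Among the other enzymes that make tetrapyrroles and chlorophyll, calls went in 1 direction. Of 40 tested members, 11 rose (27.5%) and 0 fell, with a median log2 change of 0.49. With the shikimate pathway enzymes that were dropped after values were seen, 11 rose and 1 fell among 47. The rises included steps between the first ring and protoporphyrin. Coproporphyrinogen III oxidase, Nitab4.5_0011255g0010, stood at 25.4, 38.6 and 24.0 in YOE, against 16.6, 12.6 and 16.2 in Q18 (log2 change 0.89, adjusted p = 0.0204). All YOE values lay above all Q18 values. The copy Nitab4.5_0001791g0020 of hydroxymethylbilane synthase, which joins pyrrole rings into a chain, stood at 10.6, 15.3 and 8.96 in YOE, against 7.40, 4.41 and 6.05 in Q18 (log2 change 0.85, adjusted p = 0.0213). The uroporphyrinogen decarboxylase Nitab4.5_0002713g0040, the next decarboxylating step, stood at 29.2, 42.7 and 24.6 in YOE, where Q18 had 25.1, 14.9 and 15.8 (log2 change 0.76, adjusted p = 0.0473). Its groups overlapped. The strongest by p, Nitab4.5_0006866g0010, is a tetrapyrrole methylase of the siroheme branch, which serves nitrite and sulfite reduction and not chlorophyll (log2 change 1.10, adjusted p = 0.00423). As deposited the list had 0 higher and 12 lower members, and without YOE replicate 2 and Q18 replicate 2 it had 0 in either direction.

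Photosynthesis genes with descriptions of plastid-encoded proteins were mostly higher in YOE. Descriptions of proteins that plastid genomes of plants encode, such as the PsaA and PsaB cores of photosystem I, the D1 protein, the large subunit of Rubisco, NADH-plastoquinone oxidoreductase subunits and the beta subunit of the plastid RNA polymerase, matched 86 tested genes. This list was drawn up after values were seen, and its shared domain names also took in products encoded elsewhere. Among these were subunits of nuclear RNA polymerases, a transcription initiation factor IIF subunit and subunits of respiratory complex I, and they stayed in the counts. Of them 59 rose (68.6%) and 1 fell, with a median log2 change of 1.55, and as deposited 53 were higher and 16 lower. Their summed level was 7637, 13603 and 4528 in the YOE libraries, against 1932, 1273 and 2194 in the Q18 libraries, so the groups did not overlap. Without YOE replicate 2 and Q18 replicate 2, 5 members were higher and 0 lower. Many of these entries may be plastid fragments placed in the nuclear assembly, and which source their reads came from was not tested.

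Single entries of that type were high and spread widely between YOE libraries. The RNA polymerase subunit Nitab4.5_0007104g0040 stood at 2190, 3072 and 1731 in YOE, against 443.8, 336.5 and 635.6 in Q18 (log2 change 2.31, adjusted p = 0.00398). The Rubisco large-subunit entry Nitab4.5_0002553g0010 stood at 829.9, 1605 and 419.5 in YOE, against 177.0, 145.7 and 230.9 in Q18 (log2 change 2.18, adjusted p = 0.00799). A PsaA/PsaB entry, Nitab4.5_0025922g0020, averaged 235 ± 153 in YOE and 29.9 ± 9.95 in Q18 (log2 change 2.75, adjusted p = 0.0053). In all 3 entries YOE replicate 2 was the highest and YOE replicate 3 the lowest of its group, and no YOE value overlapped Q18. The same PsaA/PsaB entry reached 135.0 to 249.3 in KY and 38.1 to 81.0 in K326.

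Photosystem subunits that plants encode in the nucleus gave few calls. Of 91 tested, 4 rose (4.4%) and 0 fell, although their median log2 change was 0.56. Their sum was 37760, 53371 and 33045 in YOE, against 39048, 22181 and 28219 in Q18, with YOE replicate 2 high, Q18 replicate 2 low and the groups overlapping. The light-harvesting proteins had 6 of 88 higher, 2 lower and a median of 0.46. As deposited the 2 lists had 0 and 1 higher members and 27 and 33 lower ones. Neither list had a call without YOE replicate 2 and Q18 replicate 2. One light-harvesting gene fell, Nitab4.5_0002210g0110, at 6.77, 4.83 and 4.61 in YOE, against 25.4, 15.1 and 16.6 in Q18 (log2 change -1.63, adjusted p = 0.0106).

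In the Calvin cycle, which fixes carbon dioxide, 19 of 70 tested genes rose (27.1%) and 1 fell, as deposited 9 and 35. Uridine kinases that share a domain name had been dropped from this list after values were seen, and with them it had 19 rises and 8 falls among 81. Without YOE replicate 2 and Q18 replicate 2 none was called. Several of the rises are the Rubisco large-subunit entries already counted. The abundant small-subunit gene Nitab4.5_0000682g0090 stood at 5491, 8675 and 4550 in YOE, against 3441, 1333 and 2367 in Q18 (log2 change 1.44, adjusted p = 0.0251). Another small-subunit gene, Nitab4.5_0002207g0050, had the largest fall of all genes, at 3.00, 1.24 and 0 in YOE, against 5355, 2069 and 144.5 in Q18 (log2 change -9.14, SE 2.47, adjusted p = 0.0294). In K326 it stood at 0, 2410 and 9.98 and in KY at 2045, 105.7 and 33.5, so it varied widely within each wild type too. Near-identical small-subunit copies can exchange reads, and its value is uncertain. Among abundant genes, an aldolase, Nitab4.5_0017990g0020, and an ATPase of the AAA type, Nitab4.5_0000722g0100, had scaled log2 changes of 0.75 and 0.92 but -0.19 and -0.03 as deposited.

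Carotenoid genes gave 4 rises among 23 tested, with 1 fall. Both named members share the squalene and phytoene synthase description, and phytoene synthase opens the carotenoid pathway. The description of Nitab4.5_0009169g0050 also has a farnesyl-diphosphate term, and whether it is a carotenoid enzyme was not tested. It counts among the rises (log2 change 0.61, limma adjusted p = 0.0105). Nitab4.5_0006449g0010 stood at 40.6, 45.2 and 42.5 in YOE, against 23.9, 20.9 and 18.5 in Q18 (log2 change 0.99, adjusted p = 0.00176). The groups were well apart, and KY was higher still at 77.0 to 90.8. As deposited the list had 0 higher and 15 lower members, and without YOE replicate 2 and Q18 replicate 2 it had 1 and 0.

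Chlorophyll breakdown gave 3 calls, all with large changes. Of 21 tested genes, 3 rose (14.3%, beside 8.82% over all genes) and 0 fell, with a median of 0.05. As deposited 2 were higher and 14 lower, and without YOE replicate 2 and Q18 replicate 2, 1 was higher. The chlorophyllase Nitab4.5_0011519g0020, of the enzyme family that cleaves the phytol tail from chlorophyll, stood at 12.4, 30.4 and 50.2 in YOE, against 2.40, 0.57 and 0.538 in Q18 (log2 change 3.79, adjusted p = 0.00113). It was at most 1.68 in the wild-type libraries. The other 2 rises were Staygreen proteins, which take part in removing magnesium from chlorophyll. Nitab4.5_0011435g0010 stood at 3.67, 15.6 and 31.1 in YOE, where Q18 had 1.91, 1.58 and 3.35 (log2 change 2.08, adjusted p = 0.0261). Nitab4.5_0000140g0110 stood at 0.706, 13.4 and 19.8 in YOE, against 0.713, 0.603 and 0.215 in Q18, so YOE replicate 1 was as low as Q18. None of the 10 tested genes of the pheophorbide a oxygenase type, the family of a later breakdown step, passed. Papain-type cysteine proteases, which often accumulate in ageing leaves, had 8 higher and 7 lower among 30.

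Jasmonate genes had the highest share of rises among the 34 lists of the plot by list. Jasmonate is a wound and defence hormone made from plastid lipids by lipoxygenases, allene oxide synthase and allene oxide cyclase, and Tify-domain proteins of the JAZ type repress its responses and are themselves induced by it. Of 34 tested genes 21 rose (61.8%) and 1 fell, with a median log2 change of 1.18. The list kept more rises than falls as deposited, with 10 higher and 8 lower, and without YOE replicate 2 and Q18 replicate 2, with 8 higher and 0 lower.

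The Tify genes alone had 12 rises among 16 tested and 0 falls. Their sum was 780.1, 1368 and 1517 in YOE, against 315.2, 216.1 and 277.2 in Q18. Nitab4.5_0006232g0010 stood at 65.1, 77.0 and 80.5 in YOE, against 19.7, 13.5 and 13.4 in Q18 (log2 change 2.20, SE 0.21, adjusted p = 0.000771). No library of either wild type exceeded 27.4 for this gene. Nitab4.5_0002046g0020 was low but even, at 5.65, 8.11 and 6.92 in YOE, against 2.10, 2.13 and 2.01 in Q18 (log2 change 1.35, adjusted p = 0.000952). Other members varied far more between YOE libraries. Nitab4.5_0001531g0050 stood at 9.68, 56.4 and 168.6 in YOE, where Q18 had 9.08, 1.23 and 8.72, and YOE replicate 1 thus lay next to Q18.

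Both allene oxide cyclase copies rose. Nitab4.5_0004118g0110 stood at 103.9, 300.1 and 185.3 in YOE, against 34.4, 28.7 and 44.3 in Q18 (log2 change 2.32, adjusted p = 0.00198). Nitab4.5_0007287g0040 stood at 83.1, 297.3 and 246.0 in YOE, against 40.3, 31.2 and 42.7 in Q18 (log2 change 2.25, adjusted p = 0.00434). In both, YOE replicate 1 was the lowest YOE value and still above every Q18 value. Of 16 lipoxygenases 7 rose and 1 fell, with Nitab4.5_0002164g0020 at 12.1, 28.99 and 30.4 in YOE, against 3.43, 2.71 and 4.54 in Q18. Among the GH3 enzymes, which join jasmonate or auxin to amino acids, 8 of 15 rose and 2 fell. Nitab4.5_0000522g0190 averaged 21.3 ± 8.45 in YOE and 3.22 ± 0.212 in Q18 (log2 change 2.32, adjusted p = 0.00114).

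**Figure D3:**
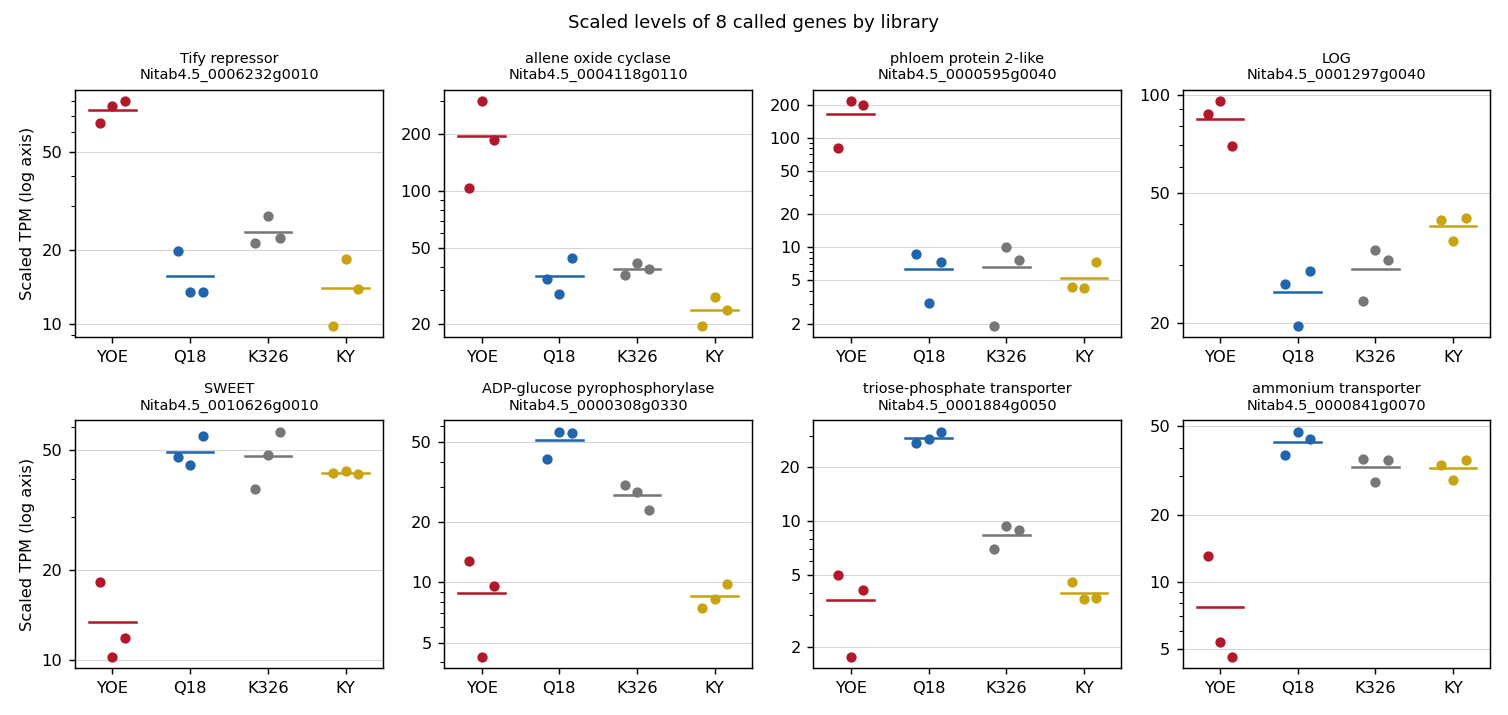
Scaled TPM of 8 called genes in each library on log axes (points; bars are group means; n = 3 a group). The upper row holds genes higher in YOE than in Q18 and the lower row genes lower in YOE. For all 8 the YOE and Q18 points do not overlap, and in the upper row YOE also lies above both wild types. Some of the 8 were chosen among called genes without overlap.

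Other wound and defence genes were tested beside them. Chitinases, pathogenesis-related proteins and proteinase inhibitors had 17 higher (16.8%) and 4 lower among 101 (27 and 4 among 127 before expansins were dropped after values were seen), as deposited 7 and 31, and none without YOE replicate 2 and Q18 replicate 2. The Kunitz inhibitor Nitab4.5_0016396g0010, of a family of proteins that block digestive proteases, stood at 2.91, 3.34 and 1.52 in YOE, against 0.071, 0.073 and 0 in Q18 (log2 change 1.74, adjusted p = 0.00144). Immune receptors of the NB-ARC type gave 6 higher and 8 lower among 143, below the share over all genes in both directions.

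Sugar export genes went the other way. SWEET proteins let sugars leave cells across the plasma membrane, and some load sucrose for transport in the phloem. Of 33 tested, 18 fell (54.5%) and 4 rose, with a median log2 change of -0.96. As deposited 26 were lower and 1 higher, and without YOE replicate 2 and Q18 replicate 2, 5 were lower and 1 higher. Their sum was 675, 431 and 470.1 in YOE, against 1055, 1018 and 1032 in Q18. The wild types lay nearer to Q18 here, at 815.4 to 1199 in K326 and 1172 to 1294 in KY.

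Abundant SWEET genes were among those that fell. Nitab4.5_0009485g0020 stood at 171.4, 104.1 and 90.1 in YOE, against 273.1, 275.2 and 275.1 in Q18 (log2 change -1.22, adjusted p = 0.0067). Nitab4.5_0001332g0120 stood at 52.5, 35.1 and 31.9 in YOE, against 97.9, 99.5 and 99.7 in Q18 (log2 change -1.33, adjusted p = 0.00272). Nitab4.5_0010626g0010 stood at 18.2, 10.2 and 11.8 in YOE, against 47.4, 44.7 and 55.7 in Q18 (log2 change -1.83, SE 0.20, adjusted p = 0.00113). In all 3 the groups were well apart. They were chosen by smallest p or after their values were seen, so that trait is no separate result. A run of consecutive identifiers, Nitab4.5_0005940g0010, Nitab4.5_0005940g0020 and Nitab4.5_0005940g0030, fell together. The first of them stood at 2.98, 2.46 and 4.24 in YOE, against 15.5, 14.2 and 16.3 in Q18. The rises included Nitab4.5_0003746g0030, at 33.1, 35.9 and 79.7 in YOE, against 18.9, 10.2 and 12.1 in Q18.

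Called genes of sugar-phosphate transport and starch metabolism were more often lower than higher. Of 81 genes on the plastid sugar-phosphate translocator and dikinase list, 13 fell (16.0%) and 2 rose, and as deposited 56 were lower and 0 higher. Members were matched by domain names such as the triose-phosphate transporter domain, and whether each acts in the plastid was not tested. The list had 3 falls and 0 rises without YOE replicate 2 and Q18 replicate 2. With all libraries its median log2 change was -0.01, beside -0.04 over all genes. Its sums were 741.8, 802.3 and 1083 in YOE, against 865.3, 784.8 and 849.4 in Q18, and they overlapped. The triose-phosphate transporter-domain gene Nitab4.5_0001884g0050 stood at 5.00, 1.76 and 4.13 in YOE, against 27.5, 28.7 and 31.6 in Q18 (log2 change -2.78, SE 0.24, adjusted p = 0.000771). K326 had 6.97 to 9.37 and KY 3.69 to 4.57, so Q18 was the group that stood apart at this gene. A second member, Nitab4.5_0005547g0010, stood at 9.99, 6.73 and 6.03 in YOE, against 16.7, 18.7 and 20.6 in Q18 (log2 change -1.22, adjusted p = 0.00205).

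Among starch genes 17 of 60 fell (28.3%) and 5 rose, and as deposited 47 were lower and 3 higher. The list had 3 falls and 1 rise without YOE replicate 2 and Q18 replicate 2. ADP-glucose pyrophosphorylase makes the sugar donor for starch, and 3 of its 8 tested genes fell. Nitab4.5_0000308g0330 stood at 12.8, 4.27 and 9.62 in YOE, against 41.3, 56.3 and 55.4 in Q18 (log2 change -2.49, adjusted p = 0.00125). Nitab4.5_0009972g0030 stood at 29.7, 6.48 and 23.5 in YOE, against 77.2, 89.1 and 113.7 in Q18 (log2 change -2.39, adjusted p = 0.0058). YOE replicate 2 was the lowest library for both, and both were also low in KY, at 7.47 to 15.5. The glucan phosphorylases, which release glucose 1-phosphate from starch, had 6 falls among 8. Their sum was 120.2, 55.4 and 59.8 in YOE, against 177.7, 163.3 and 228.1 in Q18. Beta-amylase-type genes split, with 5 rises and 3 falls among 18. The most changed, Nitab4.5_0001255g0020, stood at 63.9, 67.2 and 26.5 in YOE, against 13.0, 11.4 and 14.5 in Q18, while K326 had 41.3 to 84.9 and KY 187.9 to 199.1.

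Nitrogen uptake and assimilation had 9 falls (21.4%) and 1 rise among 42 genes, and as deposited 36 falls and 0 rises. Leaving out YOE replicate 2 and Q18 replicate 2 gave 2 falls and 0 rises. Of 9 ammonium transporters 3 fell. Nitab4.5_0000841g0070 stood at 13.1, 5.37 and 4.61 in YOE, against 37.0, 47.3 and 43.9 in Q18 (log2 change -2.45, adjusted p = 0.00117). Nitab4.5_0002937g0040 stood at 21.5, 17.6 and 12.2 in YOE, against 33.4, 41.7 and 37.1 in Q18 (log2 change -1.11, adjusted p = 0.00297). For both genes K326 and KY lay at or near the Q18 level, at 28.1 to 35.5 and at 33.7 to 38.7. Both genes of the nitrate reductase type fell, by 0.69 and 0.45 on the log2 scale. Neither was called with the 6 libraries alone, and as few as 1 stayed called when 1 library was left out. Of 14 glutamine synthetases, which bind ammonium into glutamine, 3 fell.

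Cytokinin metabolism and signalling had 15 rises (21.4%) and 8 falls among 70 genes, and as deposited 5 and 37. The counts were 4 and 1 without YOE replicate 2 and Q18 replicate 2. The rises with all libraries included enzymes that release active cytokinin and enzymes that destroy it. LOG enzymes, which convert cytokinin nucleotides to the active base, had 5 rises among 12 and 0 falls. Nitab4.5_0001297g0040 stood at 87.5, 95.7 and 69.3 in YOE, against 26.3, 19.6 and 28.8 in Q18 (log2 change 1.72, SE 0.18, adjusted p = 0.000974). Nitab4.5_0008463g0020 stood at 33.1, 71.1 and 61.2 in YOE, against 9.70, 2.49 and 3.17 in Q18 (log2 change 3.31, adjusted p = 0.00261). Wild-type levels of the first were 23.3 to 33.4 in K326 and 35.5 to 42.0 in KY, below every YOE library. Another rise, Nitab4.5_0000602g0060, stood at 15.67, 14.74 and 21.15 in YOE, against 8.65, 5.23 and 7.01 in Q18. KY was higher than YOE at that gene, at 25.85 to 28.04. The sum over all LOG genes was 321.7, 366.7 and 331.9 in YOE, against 199.5, 169.2 and 199.6 in Q18. K326 had 212.7 to 234.7 and KY 298.1 to 306.4.

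Cytokinin dehydrogenases, which break down cytokinins, had 4 rises among 7 and 0 falls. Nitab4.5_0001861g0120 stood at 5.204, 11.8 and 9.80 in YOE, against 1.06, 1.60 and 0.522 in Q18 (log2 change 2.24, adjusted p = 0.0031). Response regulators, which carry the two-component signal, gave 6 rises and 7 falls among 45. The family to which zeatin O-glucosyltransferases belong, the UDP-glycosyltransferases, had 12 rises and 17 falls among 121 tested, with a median of -0.12. Its member with the smallest p among the rises, Nitab4.5_0000132g0530, stood at 35.7, 64.6 and 54.9 in YOE, against 10.0, 11.0 and 4.60 in Q18 (log2 change 2.50, adjusted p = 0.00197). Nitab4.5_0000725g0120 was lower, at 2.12, 1.01 and 1.44 in YOE, against 8.47, 8.05 and 6.53 in Q18. No label ties a member to NtCISZOG.

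**Figure D4:**
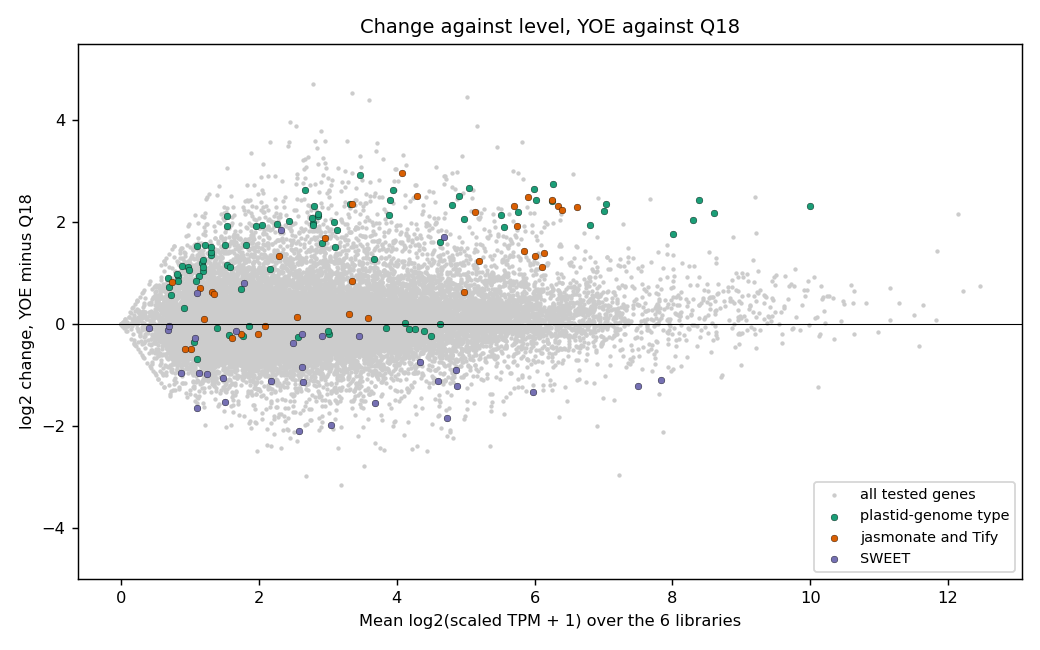
Log2 change, YOE minus Q18, against the mean log2(scaled TPM + 1) over the 6 libraries for all 31064 tested genes (grey), with plastid-genome-type genes (green), jasmonate and Tify genes (orange) and SWEET genes (purple) drawn over them. The green and orange points lie mostly above 0 and the purple points mostly below, on scaled values, and 1 gene below the axis range is not drawn.

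Phloem proteins gave some of the largest rises. Phloem protein 2 is a lectin of sieve tubes, and related lectins occur outside the phloem. Of 38 phloem protein 2 and sieve element genes 13 rose (34.2%) and 1 fell, as deposited 6 and 12. Leaving out YOE replicate 2 and Q18 replicate 2 gave 6 rises and 0 falls. Nitab4.5_0000595g0040 stood at 79.6, 215.9 and 198.3 in YOE, against 8.61, 3.09 and 7.30 in Q18 (log2 change 4.46, SE 0.53, adjusted p = 0.00129). Nitab4.5_0006525g0010 stood at 58.1, 310.6 and 408.8 in YOE, against 18.9, 8.18 and 22.9 in Q18 (log2 change 3.59, adjusted p = 0.00699). Nitab4.5_0000814g0020 stood at 69.3, 398.5 and 112.3 in YOE, against 12.2, 12.9 and 11.4 in Q18 (log2 change 3.48, adjusted p = 0.00493). Of the 11 tested phloem protein 2 genes without an F-box domain 5 rose and 0 fell. The sum over the whole list was 678.4, 1366 and 1522 in YOE, against 493.5, 464 and 596.7 in Q18. In bulk leaf RNA a changed number of cells and a changed amount of RNA per cell cannot be told apart.

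Among the other largest rises were proteins of the cell wall and surface. A pectinesterase inhibitor domain protein, Nitab4.5_0001383g0170, of a family that controls pectin in the wall, stood at 11.1, 91.4 and 38.6 in YOE, against 0.227, 0.093 and 0.828 in Q18 (log2 change 4.71, adjusted p = 0.00153). The FAS1-domain protein Nitab4.5_0002629g0030 stood at 37.6, 57.0 and 74.7 in YOE, against 4.32, 1.19 and 0.538 in Q18 (log2 change 4.40, adjusted p = 0.00113). A fatty acid elongase-type protein, Nitab4.5_0003569g0010, stood at 7.05, 28.1 and 14.7 in YOE, against 0.353, 0.265 and 0.273 in Q18 (log2 change 3.57, adjusted p = 0.000974). These 3 were chosen among called genes without overlap of the groups, so that trait is no separate result. A cytochrome P450, Nitab4.5_0009702g0010, was less even, at 2.44, 35.4 and 78.4 in YOE, against 0.886, 0.093 and 0.273 in Q18.

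Lipid transfer proteins, which carry lipids to the cuticle and are abundant in epidermis, had 18 rises (28.1%) and 3 falls among 64, as deposited 7 and 16. They had 2 and 0 without YOE replicate 2 and Q18 replicate 2. Of the 18 rises, 2 were among 7 genes of at least 2 in every YOE library and at most 0.2 in every Q18 library. No gene had the opposite state. Nitab4.5_0005076g0020 stood at 5.09, 6.48 and 5.87 in YOE, against 0, 0 and 0.132 in Q18, while KY had 4.61 to 9.84. Nitab4.5_0000170g0310 stood at 3.42, 7.21 and 2.02 in YOE, against 0.196, 0 and 0.157 in Q18. A histone H3 gene, Nitab4.5_0005909g0020, was listed at 0 in all 3 Q18 libraries and at 4.72, 3.76 and 2.20 in YOE. A ribosomal protein S13 gene, Nitab4.5_0011744g0010, was also listed at 0 in Q18 and at 8.22, 5.18 and 2.19 in YOE, and was not called (adjusted p = 0.0597).

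Genes of growth and cell division rose in part. Expansins, which loosen cell walls, had 10 rises among 27 and 0 falls, as deposited 6 and 3. Nitab4.5_0003323g0020 stood at 13.3, 30.01 and 21.9 in YOE, against 1.62, 3.40 and 1.28 in Q18 (log2 change 2.87, adjusted p = 0.000938). Cellulose synthase-type genes did not share this, with 2 rises and 5 falls among 24. Aquaporins, the water channels, had 19 rises (34.5%) and 7 falls among 55, as deposited 12 and 22. Their counts were 7 and 2 without YOE replicate 2 and Q18 replicate 2. Nitab4.5_0000575g0130 stood at 38.4, 61.0 and 38.8 in YOE, against 17.1, 12.1 and 14.3 in Q18 (log2 change 1.58, adjusted p = 0.00144).

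Histones of all kinds had 39 rises (28.7%) and 3 falls among 136. The core histones among them, which are made mostly during DNA replication, had 35 rises among 79 and 0 falls, as deposited 18 and 27. Their sum was 2577, 2792 and 1923 in YOE, against 1723, 1701 and 1772 in Q18. The H2A gene Nitab4.5_0000977g0020 stood at 56.8, 78.6 and 67.3 in YOE, against 24.7, 21.3 and 32.3 in Q18 (log2 change 1.35, adjusted p = 0.00205). Cyclins and replication licensing factors were mixed, with 11 rises and 7 falls among 81. Proteins of the cytosolic ribosome had 71 rises (19.2%) and 4 falls among 369, with a small median of 0.27, and as deposited 3 and 255. Without YOE replicate 2 and Q18 replicate 2 the whole histone list had 1 rise and the ribosomal list 0.

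Heat shock proteins, which refold damaged proteins, had 19 falls (13.0%, beside 8.49% over all genes) and 7 rises among 146, as deposited 115 and 0. These counts were 3 and 0 without YOE replicate 2 and Q18 replicate 2, and 5 and 1 with the 6 libraries alone. The sums over the list overlapped, at 3750, 3459 and 5381 in YOE, against 4554, 4909 and 4823 in Q18. The HSP70-type gene Nitab4.5_0001800g0020 stood at 10.5, 4.98 and 7.89 in YOE, against 24.2, 28.9 and 23.8 in Q18 (log2 change -1.64, adjusted p = 0.00198). Late embryogenesis abundant proteins and dehydrins, which protect drying tissue, had 14 rises and 5 falls among 73, as deposited 1 and 37, and without YOE replicate 2 and Q18 replicate 2, 3 and 1. An abundant member that fell was the LEA-5 type gene Nitab4.5_0000116g0500, at 206.4, 44.0 and 147.7 in YOE, against 409, 508.4 and 541.1 in Q18 (log2 change -2.12, adjusted p = 0.0095). Nitab4.5_0000287g0140 of the LEA-14 type was higher, at 19.5, 18.03 and 31.4 in YOE, against 8.27, 6.46 and 7.09 in Q18.

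Families of transcription factors differed in their balance. AP2/ERF factors, which include ethylene and wound response factors, had 29 rises (17.5%) and 8 falls among 166, as deposited 4 and 57. They had 6 and 2 without YOE replicate 2 and Q18 replicate 2. Nitab4.5_0001886g0060 stood at 6.48, 9.73 and 11.3 in YOE, against 3.32, 3.58 and 3.70 in Q18 (log2 change 1.14, adjusted p = 0.00261). GATA factors, some of which respond to cytokinin and promote greening in Arabidopsis, had 9 rises and 2 falls among 40, as deposited 0 and 20. Without YOE replicate 2 and Q18 replicate 2 they had 1 rise and 1 fall, and with the 6 libraries alone also 1 and 1. Nitab4.5_0008544g0010 stood at 11.9, 12.7 and 13.6 in YOE, against 5.30, 3.61 and 7.54 in Q18 (log2 change 1.12, adjusted p = 0.0059). NAC factors (7 higher, 9 lower among 70), WRKY factors (5 and 10 among 95) and clock and light CCT genes (3 and 4 among 45) had no more than 10.0% of members higher and 12.9% lower, beside the 8.82% and 8.49% over all genes. The NAC gene Nitab4.5_0010511g0010 fell, at 17.9, 13.2 and 10.7 in YOE, against 36.5, 42.0 and 41.7 in Q18 (log2 change -1.49, adjusted p = 0.00113).

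Other large falls were metabolic and regulatory genes. The cytochrome P450 Nitab4.5_0000037g0210 stood at 2.78, 1.45 and 2.04 in YOE, against 22.7, 46.4 and 16.8 in Q18 (log2 change -3.16, adjusted p = 0.00175). The Myb-domain gene Nitab4.5_0008488g0010 stood at 2.33, 0.233 and 1.90 in YOE, against 15.6, 29.04 and 10.7 in Q18 (log2 change -2.98, adjusted p = 0.00238). A gene of the senescence regulator S40 type, Nitab4.5_0011951g0010, stood at 13.6, 6.03 and 5.14 in YOE, against 39.2, 50.2 and 43.2 in Q18 (log2 change -2.39, adjusted p = 0.00167). All 3 were chosen among called genes without overlap of the groups, so that trait is no separate result. The auxin-induced ARG7-type gene Nitab4.5_0000319g0260 stood at 3.39, 3.98 and 4.99 in YOE, against 22.2, 24.2 and 20.5 in Q18 (log2 change -2.20, adjusted p = 0.000771). Auxin response genes as a list were mixed, with 19 rises and 15 falls among 164.

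Set beside the wild types, most called genes had a K326 mean nearer to Q18 than to YOE. Of the 5378 called genes, the K326 mean lay nearer to Q18 in 4569 (85.0%) and nearer to YOE in 809, and the KY mean lay nearer to Q18 in 2892 (53.8%). This is a description without a test. There were 87 genes on in K326 and off in KY, with at least 2 in each K326 library and at most 0.2 in each KY library, as deposited. The YOE libraries had 85, 82 and 85 of them at 1 or more and the Q18 libraries 85, 85 and 86, and 9 of the 87 rose and 11 fell between YOE and Q18. Of the 13 genes in the opposite state, on in KY and off in K326, the YOE libraries had 0, 1 and 1 at 1 or more and the Q18 libraries 0, 0 and 0. At these genes, chosen for differing between the wild types, both lines thus had the state of K326, although the design text names KY for the overexpression line. How far other differences in cultivar background enter the comparison was not tested.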

How the data were processed

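RNA of 12 leaf libraries was sequenced, and the 3 YOE and 3 Q18 libraries were compared. Salmon and StringTie are named, with no version, per the submitters' processing notes. Gene identifiers carry the prefix Nitab4.5, and the sources used here name no genome build. The deposited table lists 69500 genes, of which 19757 are at 0 in all libraries and 19827 are described as Unknown. The values the authors deposited were taken as TPM from the tools named and their range. No unit stands in the header, the column totals differ between libraries, which goes against TPM of a complete table, and whether they are FPKM was not tested. TPM keeps no depth, so the precision of single values is known only from replicates. Of the identifiers 0 matched the RefSeq gene table, so no positions or sequences are given.

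A scaling factor was taken for each library as the median, over the 20130 genes that reached 1 in all 12 libraries, of its ratio to the mean over the libraries. Tested were the 31064 genes whose scaled value reached 1 in 3 or more libraries. The log2(value + 1) values, which understate changes of low genes, were fitted in limma 3.58.1 (R 4.3.3) with trend and robust settings and a mean for each of 4 groups, and p-values were adjusted over all genes at 0.05. The count test planned for raw counts did not apply to TPM. On simulated data for this comparison, with 30265 genes, the fit recovered 65% of genes changed 2-fold and 95% of those changed 4-fold, with 7 false among 167 calls. The changed genes were taken from the better expressed ones, and the noise was drawn independently for each gene and library. These rates therefore need not hold for low genes or for errors that genes of a library share. Same-numbered replicates were not paired, since their deviations correlated at -0.018, -0.187 and -0.117.

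Gene lists are matches to the InterPro descriptions in the table. The comparison, its members, the 34 lists and 39 further ones were chosen with earlier results of these data known. Of the lists, 3 were trimmed after values had been seen, by dropping shikimate pathway enzymes, uridine kinases and expansins that shared a domain name. Untrimmed, the tetrapyrrole list had 11 higher and 1 lower among 47, the Calvin cycle list 19 and 8 among 81, and the chitinase list 27 and 4 among 127. Named were all chelatase genes, the 12 largest rises and 12 largest falls (called, described, no overlap of the groups, a group mean of 5 or more), 2 members a list by smallest p, up to 5 genes on in 1 line and off in the other, and up to 5 abundant genes a direction. Other genes given with values come from the further lists or were chosen after their values were seen. Alternatives were the values as deposited, quantile normalization, scaling over 6 libraries, other filters, a pseudocount of 0.1, the 6 libraries alone, a fold of 2, the replicate block, and each library left out. Leaving out YOE replicate 2 and Q18 replicate 2 together was chosen with the values known. Other software was matplotlib 3.10.9, numpy 2.4.6, pandas 2.3.3 and Python 3.11.15.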

Additional observations from a re-analysis of the deposited data

How the results depend on the processing

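The total of 5378 called genes (2740 higher, 2638 lower in YOE than in Q18) stayed within 1.5 times under quantile normalization, scaling over 6 libraries, no filter and a pseudocount of 0.1. As deposited it was 22374 (698 higher, 21676 lower). It was 3135 (1779 and 1356) with a mean of at least 5, 1396 (826 and 570) with the 6 libraries alone and 1873 (1364 and 509) with a fold of at least 2. Leaving out 1 library gave totals of 2104 to 6773, with 1105 to 3452 higher and 986 to 3321 lower. The lowest total came without YOE replicate 2 (1105 higher, 999 lower), then without Q18 replicate 2 (2207; 1221 and 986) and without Q18 replicate 3 (3448; 1807 and 1641), and without Q18 replicate 1 there were 1743 lower. Without both replicates numbered 2 it was 575, of which 249 lower. Taking the replicate number as a block gave 4724 genes (2547 and 2177). The numbers do not pair the libraries, so this is no test of the effect.

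The difference in the chelatase H sum, 30.77 scaled TPM, was -45.24 as deposited, -8.74 without both replicates numbered 2, and 7.94 to 56.35 without 1 library. Of the 102 named genes, 97 were called and 80 stayed called without each library in turn. As deposited 12 changed sign, all of them higher when scaled, by up to 0.92. These were Nitab4.5_0000733g0210 (-0.28), Nitab4.5_0001663g0090 (-0.62), Nitab4.5_0005195g0040 (-0.46), Nitab4.5_0006237g0030 (-0.20), Nitab4.5_0010636g0020 (-0.55), Nitab4.5_0011255g0010 (-0.016), Nitab4.5_0002004g0010 (-0.28), Nitab4.5_0009600g0010 (-0.13), Nitab4.5_0009169g0050 (-0.29), Nitab4.5_0017990g0020 (-0.19), Nitab4.5_0000722g0100 (-0.030) and Nitab4.5_0000202g0020 (-0.11). Without both replicates numbered 2, 38 were no longer called and 2 changed sign, Nitab4.5_0005195g0040 (-0.014) and Nitab4.5_0010636g0020 (-0.19). Their highest values without a library were 0.78 and 0.74. Without both, 2 libraries a side remain. Whether the deposited or the scaled values are nearer to the RNA per cell was not tested, and the depth in reads is unknown.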

Other observations

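Further gene families were picked after their values had been seen, so their counts describe these libraries and support nothing else. Of the phosphate-induced protein 1 family, whose EXORDIUM members in Arabidopsis are linked to growth, 10 of 14 tested genes rose in YOE against Q18 and 0 fell, as deposited 5 and 0. Nitab4.5_0005755g0010 stood at 199.5, 168.5 and 104.6 scaled TPM in YOE, against 23.4, 15.1 and 23.3 in Q18 (log2 change 2.85, limma adjusted p = 0.00443). Of the very-long-chain 3-ketoacyl-CoA synthases, which extend fatty acids for wax and suberin, 10 of 20 rose and 0 fell, as deposited 1 and 3. FAS1-domain proteins had 10 rises and 1 fall among 25, and multicopper oxidases, a family that includes laccases, 12 rises and 1 fall among 23. As deposited these had 4 and 7, and 6 and 9. Of 13 DUF1005 proteins 9 rose and 0 fell, with sums of 175.3, 101.6 and 115.7 in YOE, against 41.6, 41.6 and 35.3 in Q18. Without YOE replicate 2 and Q18 replicate 2 the phosphate-induced family had 2 rises and the ketoacyl-CoA synthases 1. In that setting the FAS1-domain proteins had 4, the multicopper oxidases 1 and the DUF1005 proteins 6. With the 6 libraries alone the synthases and the multicopper oxidases had 4 rises each.

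Other families leaned lower in YOE than in Q18 on scaled values. As deposited 33 of the 34 lists above leaned lower too, so that scale is no check here. Homeobox proteins with a POX domain, which in other plants include regulators of shoot meristems and leaf shape, had 15 falls and 0 rises among 24. Their sums were 153.4, 111.1 and 111 in YOE, against 192.8, 242.5 and 174 in Q18. Without YOE replicate 2 and Q18 replicate 2 none of them was called, and with the 6 libraries alone 2 fell. Clp chaperones had 9 falls and 0 rises among 22, and TGA-type factors 7 falls and 1 rise among 18. With the 6 libraries alone these families had 5 and 2 falls. DUF581 proteins were divided, with 11 falls and 3 rises among 21. Nitab4.5_0000715g0150 stood at 11.0, 4.38 and 6.95 in YOE, against 33.0, 36.9 and 36.8 in Q18, while Nitab4.5_0000563g0020 stood at 19.1, 17.0 and 16.3 in YOE, against 3.25, 6.40 and 2.06 in Q18.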
